A study of Mus musculus with 12 samples.

Results

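Collagens are the structural proteins of the extracellular matrix, and each collagen molecule is a trimer wound from chains that are encoded by separate genes. Each gene named Col, a type number, the letter a and a chain number encodes 1 such chain, and all genes of the deposited count table with a symbol of that form were taken. The table held 44 of them among 56860 named entries: 11 of the fibrillar types (1, 2, 3, 5, 11, 24 and 27), 6 of type 4, the network-forming collagen of basement membranes, and 27 of the other types. They were followed in primary mouse oligodendrocytes (OLs), the myelinating glia of the central nervous system, which carried the labels of C57BL/6J mice and medial prefrontal cortex. The methods of the study describe the culture as O4-positive cells isolated from newborn cortex and then differentiated. The siEgr2 group (n = 6 libraries) had been treated for 48 h with a small interfering RNA against Egr2, a zinc finger transcription factor best known for driving myelination by Schwann cells, and the siNC group (n = 6) with a scrambled siRNA. The labels do not say whether the 6 libraries of a group came from separate cultures or animals, so the p-values below measure the spread between libraries, which may be technical.

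Fibrillar collagens form banded fibrils, with types 5 and 11 held within fibrils of the more abundant chains. Type 4 collagen builds the sheet that underlies endothelium, pia and Schwann cells. Among the other types are beaded-filament chains (type 6), short chains of hexagonal networks (type 8), chains that decorate the fibril surface (types 9, 12, 14, 16, 19, 20 and 22) and membrane-spanning chains (types 13, 23 and 25). In the brain most fibrillar and type 4 collagen is ascribed to cells of the vessels and meninges, although glia in culture also transcribe collagen genes.

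The libraries held 28682946 to 39383014 counts in siNC and 8034251 to 16683677 in siEgr2, so every siEgr2 library was shallower. Whether 1 count stands for a read or for a read pair is not given in the sources used here, so the count ranges below may overstate the number of independent fragments. The 18S ribosomal entry Rn18s-rs5 took 0.142% to 1.05% of the counts in siNC and 10.5% to 16.5% in siEgr2, a gap that ran along with the groups and cannot be told apart from the treatment. Levels are given below as CPM, counts scaled to a common library total, after TMM scaling, and a gene is said to have fallen or risen when edgeR's quasi-likelihood test gave a Benjamini-Hochberg adjusted p under 0.05 over 16600 tested genes and an absolute log2 fold change over 0.5. Egr2 itself measured between 3.89 and 7.06 CPM (median 5.19) in siNC and between 2.22 and 4.86 CPM (median 3.93) in siEgr2. The groups overlapped, and the log2 fold change of -0.51 (SE 0.208, adjusted p = 0.0981) did not pass the test. The markers of the labelled cell type were present, with Mbp, a major protein of myelin, at 1830 CPM in siNC, and Gfap, the intermediate filament of astrocytes, stood above it at 4777 CPM.

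Of the 44 collagen genes, 37 passed the filter on low counts, and 11 of the 37 fell while none rose in edgeR's test, against 5.08% of all tested genes that fell and 2.63% that rose. DESeq2 and limma-voom also gave 0 collagen genes that rose, and at an unadjusted p under 0.05 in edgeR's test 23 were lower and 3 higher, beside 16.9% and 15.1% of all tested genes. The share of tested collagen genes that fell was 29.7%. The filter asked for 0.441 CPM, before TMM scaling, in 6 libraries of any group. Of the 37 genes, 30 reached that level in all siEgr2 libraries, and 7 of these 30 fell, beside 5.28% of all genes that met the same condition. The other 4 that fell, Col2a1, Col6a6, Col13a1 and Col22a1, did not reach it in all siEgr2 libraries. Col2a1, Col6a6 and Col22a1 passed the filter by the siNC libraries alone, and Col13a1 by 5 siNC libraries and 1 siEgr2 library, so their inclusion favours a fall. At an adjusted p under 0.05 alone, with no limit on the fold, 17 were lower and 1, Col11a1, was higher, beside 11.3% of all tested genes that were lower and 8.57% that were higher. Scaling by library size alone gave 20 collagen genes that fell, beside 10.5% of all tested genes. The median log2 fold change was -0.40 over the 37 collagen genes and 0.0046 over all tested genes. By class, 3 of 10 tested fibrillar genes fell, 2 of 6 of type 4 and 6 of 21 of the other types, and the class medians were -0.22, -0.51 and -0.44. Without siEgr2 replicate 6 the count for the other types was 10, with Col6a1, Col6a2, Col7a1 and Col23a1 added. In 7 of the 37 every siEgr2 library lay below every siNC library, a pattern found in 7% of all tested genes. These are bulk samples, in which fewer cells of a type and less RNA per cell cannot be told apart.

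**Figure D1:**
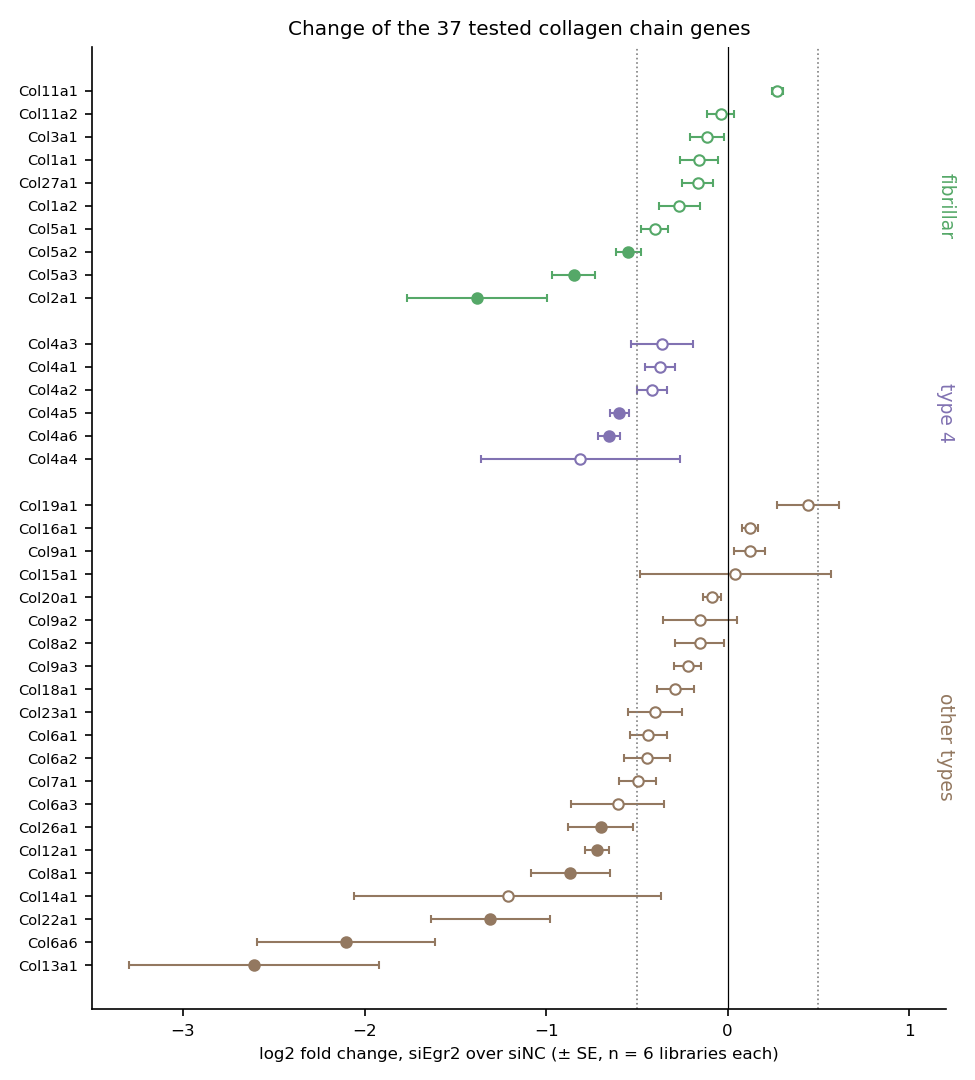
Log2 fold change of siEgr2 over siNC (x axis, bars are SE, n = 6 libraries each) for the 37 tested collagen genes, grouped by class, with filled points for genes that passed both thresholds and dotted lines at a log2 fold change of 0.5 either way. All 11 filled points lie to the left of 0, and Col13a1 and Col6a6, the farthest to the left, have the wide errors of low counts.

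The collagen pool of these cultures was dominated by few genes. In siNC the 4 most abundant, Col11a1, Col20a1, Col16a1 and Col4a1, made up 57.1% of all collagen CPM, with 29.4% from Col11a1 alone. Levels per kilobase depend on the length used, since Col1a2 has 12426 bp of annotated exons and 4116 bp of coding sequence. Per kilobase of annotated exons the order in siNC was Col11a1 at 138 CPM per kb, Col20a1 at 129, Col16a1 at 73.4, Col4a1 at 65.5, Col1a1 at 51.2 and Col4a2 at 42.3. None of these 6 genes fell by both thresholds. The genes that fell sat lower on that scale, from Col4a5 at 30.9 and Col5a2 at 17 CPM per kb down to Col6a6 at 0.152. Summed over all members, collagen CPM ranged from 5598 to 6274 in siNC and from 5398 to 6089 in siEgr2, so after TMM scaling the pooled totals overlapped. As a share of all counts, with no TMM scaling, collagen took 0.597% to 0.674% in siNC and 0.502% to 0.592% in siEgr2, without overlap. That total includes Rn18s-rs5, at 0.142% to 1.05% of counts in siNC and 10.5% to 16.5% in siEgr2. The part of this entry in the gap was not tested.

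**Figure D2:**
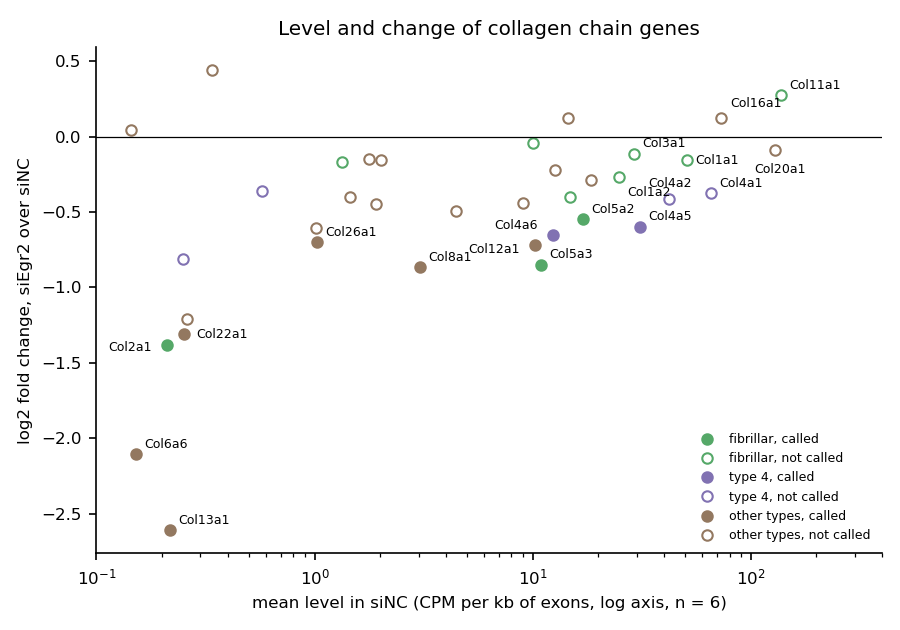
Mean level in siNC (CPM per kb of exons, log axis, n = 6 libraries) against the log2 fold change of siEgr2 over siNC for the 37 tested collagen genes, coloured by class and filled where the gene passed both thresholds. Col11a1 and Col16a1 lie above 0 and Col20a1 just below it at the right end, while the filled points begin at Col4a5 and continue to the left.

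Within the fibrillar class 2 of the 3 type 5 genes, Col5a2 and Col5a3, fell. Type 5 collagen sits inside the fibrils of type 1 and limits their width, and its usual trimer holds chains of Col5a1 and Col5a2. Col5a2 (chr1:45374321-45503282, minus strand, GRCm38, the assembly also called mm10) measured 139 to 188 CPM (median 161) in siNC and 103 to 120 CPM (median 110) in siEgr2. The groups did not overlap, and its level fell by 0.55 on the log2 scale (SE 0.0704, edgeR adjusted p = 3.89e-05). This change lies close to the fold threshold: it no longer passed without siNC replicate 6 (-0.4998), nor with the trend on gene length and GC content removed (-0.48). Col5a3 (chr9:20770050-20815067, minus strand), a less widely used type 5 chain, ranged from 60.9 to 87.6 CPM (median 70.2) in siNC and from 32.8 to 50.3 CPM (median 41.2) in siEgr2. Here too every siEgr2 library was below every siNC library, with a log2 fold change of -0.85 (SE 0.119, edgeR adjusted p = 0.000165). Col5a1 went from 126 ± 13.5 to 95.1 ± 8.84 CPM (mean ± SD, n = 6 each), a log2 fold change of -0.40 that passed the adjusted p (0.00105, edgeR) but not the fold threshold.

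Col2a1 (chr15:97975602-98004695, minus strand), the main fibrillar chain of cartilage, was a minor transcript with 32 to 106 counts in the siNC libraries and 4 to 17 in the siEgr2 libraries. Its level ranged from 0.937 to 3.03 CPM (median 1.79) in siNC and from 0.269 to 1.27 CPM (median 0.774) in siEgr2, and the groups overlapped. The fitted log2 fold change was -1.38 (SE 0.386, edgeR adjusted p = 0.0181), and limma-voom did not call it.

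The chains of the most abundant fibrils of connective tissue did not pass the test. Col1a1 measured 252 to 427 CPM (median 331) in siNC and 282 to 324 CPM (median 303) in siEgr2, so the siEgr2 libraries lay within the siNC range. Its log2 fold change was -0.16 (SE 0.103, edgeR adjusted p = 0.327). Col1a2, its partner in the type 1 trimer, gave -0.27 (SE 0.115, edgeR adjusted p = 0.133), and Col3a1, a chain that forms fibrils with type 1, gave -0.11 (SE 0.0941, edgeR adjusted p = 0.452). These 3 genes varied together among the siNC libraries: siNC replicate 2 was highest for each, at 427, 393 and 352 CPM for Col1a1, Col1a2 and Col3a1, and siNC replicate 4 lowest for each, at 252, 226 and 224 CPM. Col11a2 (log2 fold change -0.039, adjusted p = 0.772, edgeR) and Col27a1 (-0.17, adjusted p = 0.209) also missed the threshold.

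Col11a1 (chr3:114030540-114220718, plus strand), a fibrillar chain first described in cartilage, was the only collagen gene with every siEgr2 library above every siNC library. It measured 1708 to 1813 CPM (median 1749) in siNC and 2020 to 2239 CPM (median 2105) in siEgr2. The spread within each group was small, 2.54% of the mean in siNC and 3.84% in siEgr2. The log2 fold change of 0.27 (SE 0.0292, edgeR adjusted p = 5.83e-06) passed the adjusted p and stayed under the fold threshold. With scaling by library size alone it was 0.093 (edgeR adjusted p = 0.0909, against 2.47e-13 to 0.000278 in the other alternatives) and no longer passed the adjusted p. The summed fibrillar level was 2918 to 3433 CPM in siNC and 3142 to 3485 CPM in siEgr2. Without Col11a1 the sum was 1105 to 1624 CPM (median 1388) in siNC and 1063 to 1283 CPM (median 1155) in siEgr2.

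**Figure D3:**
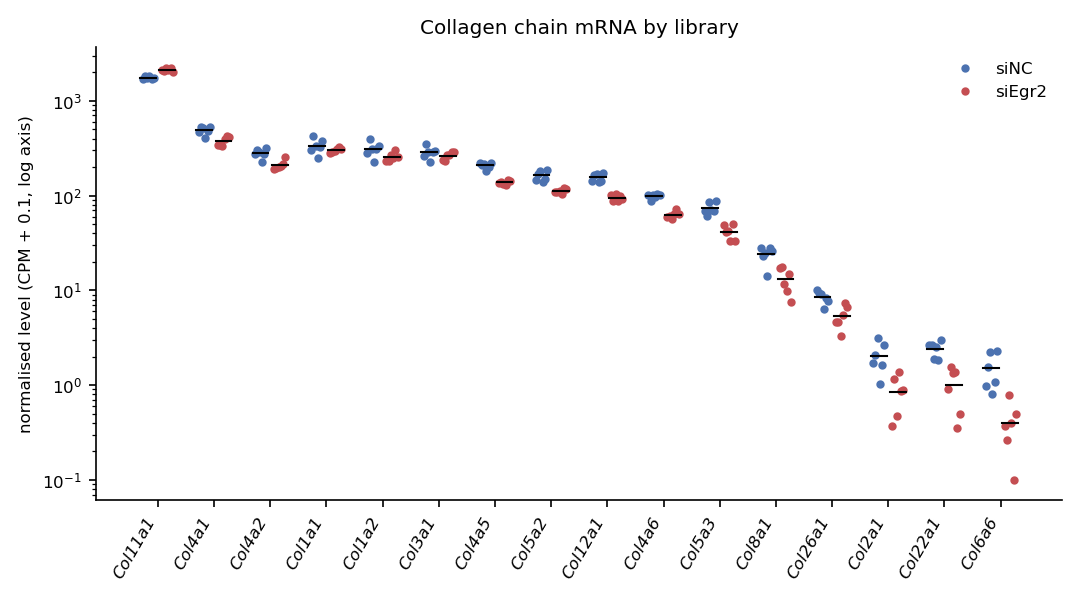
Level of 16 collagen genes (CPM + 0.1, log axis) in each siNC (blue) and siEgr2 (red) library, with a black bar at the mean of each group (n = 6). The red points of Col4a5, Col5a2, Col12a1, Col4a6, Col5a3, Col22a1 and Col6a6 lie wholly under the blue ones, those of Col11a1 wholly above, and those of Col1a1, Col1a2 and Col3a1 fall among the blue.

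All 6 type 4 genes passed the filter and all 6 had negative log2 fold changes. In mammals these genes lie as 3 pairs, and in each pair the partners are read away from each other from neighbouring starts. The annotation placed the starts of Col4a1 and Col4a2 21 bp apart on chromosome 8, those of Col4a4 and Col4a3 72 bp apart on chromosome 1 and those of Col4a6 and Col4a5 1309 bp apart on chromosome X. The promoters of the abundant pairs are shown because both partners of each pair were lower in siEgr2. Each run holds 250 bases before the start and 50 after it, 5′ to 3′ on the strand of the gene, from RefSeq on GRCm38.p6. Capitals mark a CCAAT box (CCAAT) or a GC box (GGGCGG) on either strand. The windows are chr8:11312777-11313076 (minus) for Col4a1, chr8:11312555-11312854 (plus) for Col4a2, chrX:141475169-141475468 (plus) for Col4a5 and chrX:141474027-141474326 (minus) for Col4a6.
Col4a1: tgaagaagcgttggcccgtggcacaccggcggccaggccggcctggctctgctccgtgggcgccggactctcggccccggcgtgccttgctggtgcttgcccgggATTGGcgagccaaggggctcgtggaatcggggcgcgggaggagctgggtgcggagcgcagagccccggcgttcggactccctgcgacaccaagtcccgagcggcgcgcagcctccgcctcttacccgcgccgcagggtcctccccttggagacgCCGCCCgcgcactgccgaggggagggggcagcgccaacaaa
Col4a2: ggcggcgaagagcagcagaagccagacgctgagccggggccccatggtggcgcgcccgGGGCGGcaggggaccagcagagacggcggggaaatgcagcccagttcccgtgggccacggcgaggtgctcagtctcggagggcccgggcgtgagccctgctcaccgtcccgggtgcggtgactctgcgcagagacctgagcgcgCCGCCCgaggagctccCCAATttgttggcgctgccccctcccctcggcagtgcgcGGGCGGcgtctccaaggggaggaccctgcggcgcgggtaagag
Col4a5: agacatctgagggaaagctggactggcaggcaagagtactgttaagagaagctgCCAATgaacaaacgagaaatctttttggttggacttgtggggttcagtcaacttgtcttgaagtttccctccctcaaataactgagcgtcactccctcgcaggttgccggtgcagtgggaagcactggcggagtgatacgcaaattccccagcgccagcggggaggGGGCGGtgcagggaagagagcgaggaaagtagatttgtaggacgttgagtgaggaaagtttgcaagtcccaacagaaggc
Col4a6: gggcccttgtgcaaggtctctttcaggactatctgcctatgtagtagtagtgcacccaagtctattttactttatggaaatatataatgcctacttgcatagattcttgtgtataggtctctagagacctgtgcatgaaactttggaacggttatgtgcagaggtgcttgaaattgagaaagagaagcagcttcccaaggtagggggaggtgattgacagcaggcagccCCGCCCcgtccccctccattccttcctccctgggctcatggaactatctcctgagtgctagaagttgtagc
The windows of Col4a1 and Col4a2 share 78 bases, read from opposite strands, and the GC box after each start is the same one. Col4a1, Col4a2 and Col4a5 each held a CCAAT box, whereas Col4a6 held none in this window.

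Col4a5 and Col4a6, whose products join in a type 4 network found under some epithelia and smooth muscle, were the type 4 genes that fell. Col4a5 (chrX:141475385-141689234, plus strand) measured 181 to 222 CPM (median 212) in siNC and 128 to 147 CPM (median 138) in siEgr2. Its level fell by 0.60 on the log2 scale (SE 0.0519, edgeR adjusted p = 7.63e-07). Col4a6 (chrX:141165403-141474076, minus strand) measured 87.7 to 103 CPM (median 101) in siNC and 56.2 to 72.9 CPM (median 62.4) in siEgr2, and fell by 0.65 (SE 0.0616, edgeR adjusted p = 1.68e-06). In both genes the lowest siNC library stood above the highest siEgr2 library.

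Col4a1 and Col4a2, the chains of the type 4 molecule present in nearly all basement membranes, were lower by a smaller amount. Col4a1 (chr8:11198423-11312826, minus strand) measured 404 to 533 CPM (median 497) in siNC and 333 to 429 CPM (median 371) in siEgr2, a log2 fold change of -0.37 (SE 0.0807, edgeR adjusted p = 0.00502). Col4a2 (chr8:11312805-11449287, plus strand) measured 227 to 314 CPM (median 282) in siNC and 189 to 254 CPM (median 202) in siEgr2, a log2 fold change of -0.42 (SE 0.0817, edgeR adjusted p = 0.00235). Both passed the adjusted p and missed the fold threshold, and in each the groups overlapped through siNC replicate 4, the lowest siNC library. The first exons of this pair overlap by 22 bp on opposite strands, which is 0.29% of the exonic length of Col4a1, and whether the counting used strand is not given in the sources used here. Col4a3 and Col4a4, the chains of the glomerular network, were scarce at 5.7 and 2.64 CPM in siNC and did not pass the test (log2 fold changes of -0.36 and -0.81, edgeR adjusted p of 0.156 and 0.341). The summed type 4 level was 915 to 1175 CPM in siNC and 725 to 886 CPM in siEgr2, without overlap.

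Among the other types, 6 genes fell, and Col12a1 was by far the most abundant of them. Col12a1 (chr9:79598991-79718831, minus strand) encodes a chain that binds along the surface of type 1 fibrils. It measured 139 to 174 CPM (median 155) in siNC and 87.3 to 105 CPM (median 95.0) in siEgr2, without overlap. The log2 fold change was -0.72 (SE 0.0667, edgeR adjusted p = 1.43e-06).

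Col8a1 (chr16:57624258-57754737, minus strand), a short network chain made by vessel wall cells and by corneal endothelium, measured 14 to 27.8 CPM (median 25.3) in siNC and 7.41 to 17.7 CPM (median 13.1) in siEgr2. Only siNC replicate 4, at 14 CPM, lay within the siEgr2 range, and the other siNC libraries lay between 22.8 and 27.8 CPM. Its log2 fold change was -0.87 (SE 0.22, edgeR adjusted p = 0.014). The partner gene Col8a2 gave -0.15 (SE 0.135, edgeR adjusted p = 0.477).

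Col26a1 (chr5:136741759-136883209, minus strand) measured 6.21 to 10.1 CPM in siNC and 3.21 to 7.17 CPM in siEgr2, with a log2 fold change of -0.70 (SE 0.18, edgeR adjusted p = 0.0112). The remaining 3 genes that fell were close to the limit of detection at this depth. Col22a1 (chr15:71795795-72034227, minus strand), a chain of tissue junctions such as that of muscle and tendon, had 53 to 122 counts in siNC libraries and 2 to 20 in siEgr2, a log2 fold change of -1.31 (SE 0.329, edgeR adjusted p = 0.00963). Col6a6 (chr9:105687809-105828160, minus strand), a type 6 chain, had 24 to 92 counts in siNC and 0 to 11 in siEgr2, with a log2 fold change of -2.10 (SE 0.488, edgeR adjusted p = 0.00555). Col13a1 (chr10:61838236-61979108, minus strand), a membrane-spanning chain, had 11 to 79 counts in siNC and 0 to 6 in siEgr2, with a log2 fold change of -2.61 (SE 0.687, edgeR adjusted p = 0.0128), and it was not tested when siNC replicate 1, 2, 3, 5 or 6 was left out. In CPM, which allows for depth, Col6a6 and Col22a1 did not overlap between the groups and Col13a1 did.

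The other members of these types did not pass both thresholds. Col20a1, a fibril-surface chain, measured 611 to 717 CPM in siNC and 582 to 689 CPM in siEgr2, with a log2 fold change of -0.087 (edgeR adjusted p = 0.261). Col16a1, another chain of that group, measured 458 to 535 CPM in siNC and 502 to 567 CPM in siEgr2, with a log2 fold change of 0.12 (edgeR adjusted p = 0.0632). Col9a1, which coats cartilage fibrils, gave 0.12 (edgeR adjusted p = 0.359), and its partners Col9a2 and Col9a3 gave -0.15 and -0.22 (edgeR adjusted p of 0.667 and 0.0511). Scaling by library size alone, which moved the median of all genes to -0.18, turned Col16a1 to -0.057 and Col9a1 to -0.059. Col18a1, a basement membrane collagen that carries heparan sulfate, gave -0.29 (edgeR adjusted p = 0.0671). The beaded-filament genes Col6a1 and Col6a2 passed the adjusted p (0.00562 and 0.021, edgeR) at log2 fold changes of -0.44 each, under the fold threshold. Col6a3 did not pass (-0.61, edgeR adjusted p = 0.118), although it fell without siNC replicate 4. Leaving out 1 library moved its log2 fold change between -0.73 and -0.39. Col7a1, the chain of the anchoring fibrils of skin, measured 34.7 to 56.4 CPM in siNC and 29.7 to 38.7 CPM in siEgr2. Its log2 fold change of -0.497 (SE 0.102, edgeR adjusted p = 0.00221) lay just under the fold threshold, and DESeq2 and limma-voom called it.

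The 7 genes left out by the filter on low counts never exceeded 18 counts in any library, and Col28a1 had no count in any. Col10a1 was at 0 in all siNC libraries and had 12 counts in siEgr2 replicate 4 and 4 counts in siEgr2 replicate 6. Of the 44 genes, 35 had an entry in the promoter table, 38 entries in all. Among the genes that fell, Col2a1, Col5a2, Col12a1, Col22a1 and Col26a1 had no entry and were not searched. The binding motif of the EGR family was searched in its forms GCGTGGGCG and GCGGGGGCG on both strands. The first form occurred in 0.61% of 32851 promoters and in none of the collagen entries. The second occurred in 2.91% of all promoters and in 1 collagen entry, that of Col8a1, which is printed to show where the letters lie (chr16:57754688-57754987, minus strand).
Col8a1: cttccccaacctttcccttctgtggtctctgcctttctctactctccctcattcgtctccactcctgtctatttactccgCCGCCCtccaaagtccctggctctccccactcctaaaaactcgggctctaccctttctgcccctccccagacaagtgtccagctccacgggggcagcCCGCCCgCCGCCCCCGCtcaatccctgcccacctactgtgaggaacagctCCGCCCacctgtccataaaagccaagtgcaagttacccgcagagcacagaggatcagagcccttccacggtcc
In this run the capitals mark GC boxes and the EGR motif, all read on the other strand. The EGR motif begins 65 bases before the start and overlaps a GC box that begins 66 bases before it. GC boxes were present in 23 of the 38 collagen entries and in 35.66% of all promoters, CCAAT boxes in 13 and in 37.41%, and the TATA box letters TATAAA in 5 and in 13.62%. The median GC content was 59.8% in the collagen entries and 52.7% in all.

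Because chains assemble as trimers, the ratio of partner chains per kilobase was followed in each library. Col1a1 over Col1a2 was 2.07 ± 0.043 (SD, n = 6) in siNC and 2.24 ± 0.135 in siEgr2, Col4a1 over Col4a2 was 1.55 ± 0.031 and 1.60 ± 0.116, and Col4a5 over Col4a6 was 2.51 ± 0.224 and 2.61 ± 0.18. In 4 of 6 siEgr2 libraries Col1a1 over Col1a2 lay above the highest siNC value of 2.12. Col5a1 over Col5a2 was 0.874 ± 0.0347 in siNC and 0.964 ± 0.075 in siEgr2. Col11a1 over Col11a2 ranged from 12.4 to 15.9 in siNC and from 15.3 to 19.6 in siEgr2, overlapping slightly. Col8a1 over Col8a2 ranged from 0.994 to 1.93 in siNC and from 0.501 to 1.46 in siEgr2. No ratio separated the groups fully, and no test was made. The ratios hold for annotated exon lengths: over coding lengths Col1a1 over Col1a2 became 1.03 and 1.12, near parity in both groups.

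**Figure D4:**
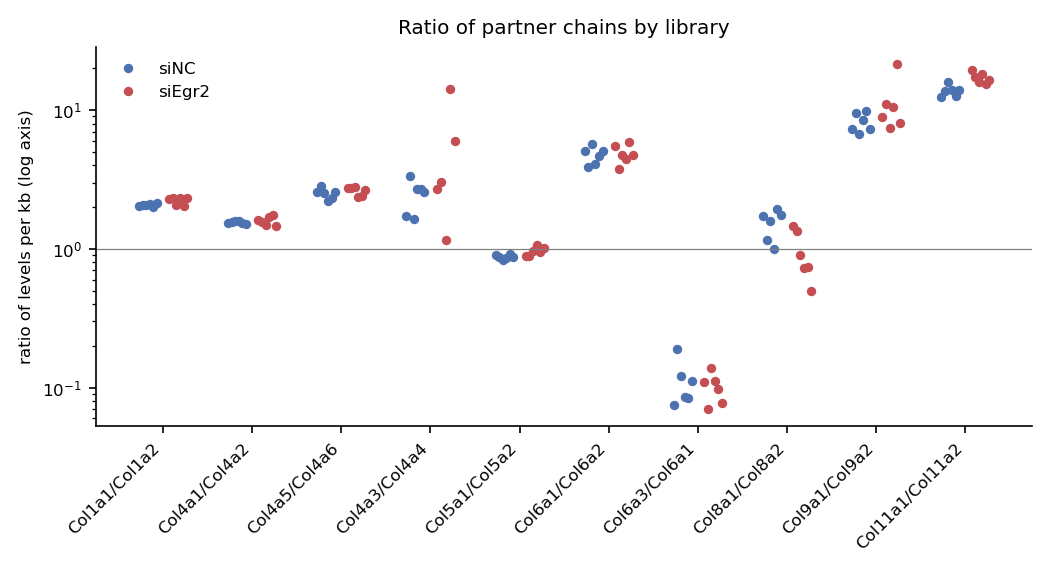
Ratio of the levels per kb of 10 pairs of partner chains (log axis) in each siNC (blue) and siEgr2 (red) library. The pairs of type 1 and type 4 on the left form tight clusters except Col4a3/Col4a4, which rests on low counts and lacks 1 siEgr2 library with no Col4a4 count, and Col11a1/Col11a2 has the highest group means, with its siEgr2 points shifted upwards, while the highest single point is Col9a1/Col9a2 in siEgr2 replicate 5 at 21.4.

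Genes that make, export, trim and bind collagen were examined as lists. Of the 20 genes for folding and modification, 3 fell and all 20 had negative log2 fold changes, with a list median of -0.24, beside 5.08% of all tested genes that fell and 49.1% that were negative. Creb3l1, a transcription factor that switches on collagen genes and secretion, measured 15.7 to 20.1 CPM in siNC and 5.87 to 9.35 CPM in siEgr2, a log2 fold change of -1.10 (SE 0.11, edgeR adjusted p = 3.09e-06). P4ha3, a subunit of prolyl 4-hydroxylase, and Fkbp10, a collagen chaperone, fell by 0.66 and 0.62 (edgeR adjusted p of 3.15e-06 and 0.000608). None of the 10 genes for export of large procollagen cargo fell or rose in edgeR's test, at a median of -0.060. Of the 10, 1 was lower and 1 higher at an adjusted p under 0.05 alone, beside 11.3% and 8.57% of all tested genes. The counts were the same at an unadjusted p under 0.05, beside 16.9% and 15.1% of all tested genes. In this list 1 gene fell without siNC replicate 4 or siEgr2 replicate 1. Of 14 genes for processing and crosslinking, 2 fell, the procollagen peptidase Adamts14 (-0.94, edgeR adjusted p = 0.00297) and the protease Tll1 (-0.80, adjusted p = 0.0291), at a list median of -0.21. At an adjusted p under 0.05 alone 6 of the 14 were lower and 2 higher (11.3% and 8.57% of all tested genes), Pcolce2, an enhancer of procollagen cleavage (0.44, edgeR adjusted p = 0.012), and Adamts3, another procollagen peptidase (0.46, adjusted p = 0.0457). The count of 2 was 1 without siNC replicate 2 and 4 without siEgr2 replicate 4 or 6.

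Of 11 collagen receptor genes, 2 fell (5.08% of all tested genes), at a list median of -0.23. Adgrg6, an adhesion receptor that binds type 4 collagen and is needed for Schwann cell myelination, measured 66.5 to 81.4 CPM in siNC and 46.7 to 50.3 CPM in siEgr2, a log2 fold change of -0.66 (SE 0.0528, edgeR adjusted p = 3.16e-07). Itga2, an integrin subunit, fell by 0.63 (SE 0.158, edgeR adjusted p = 0.00933).

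The basement membrane partners of type 4 collagen held the highest share of genes that fell among these 5 lists, 6 of 12, at a list median of -0.43. Lama5, a laminin chain, went from 87.7 to 129 CPM in siNC to between 49.2 and 56.3 CPM in siEgr2, a log2 fold change of -1.06 (SE 0.0807, edgeR adjusted p = 1.99e-07). Nid2, which links laminin to type 4 collagen, gave -0.85 (edgeR adjusted p = 2.82e-06), and the laminin chains Lamc3 and Lamb2 gave -0.69 and -0.67 (adjusted p of 0.00868 and 1.04e-06). Across the 5 lists 13 of 67 tested genes fell and none rose in edgeR's test, beside 5.08% and 2.63% of all tested genes. At an unadjusted p under 0.05, 39 of the 67 were lower and 5 higher, beside 16.9% and 15.1% of all tested genes.

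Markers of other cells moved with the same groups, and their counts stand beside 5.08% of all tested genes that fell, 2.63% that rose and 7% with every siEgr2 library below every siNC library. All 8 astrocyte markers were lower in every siEgr2 library than in any siNC library and 5 of them fell, and their summed level was 8123 to 8826 CPM in siNC and 5171 to 5873 CPM in siEgr2. Of the 10 tested fibroblast and pericyte markers 4 fell, with Pdgfrb at -0.56 (edgeR adjusted p = 0.000562), while the sum over all 12 was 162 to 264 CPM in siNC and 125 to 173 CPM in siEgr2. Of 8 genes listed as OL precursor markers none fell and 3 rose, Pdgfra, Cspg4 and Pcdh15, with sums of 4169 to 4669 CPM in siNC and 5027 to 6038 CPM in siEgr2. These sums include Bcas1, which spread from 1318 to 2182 CPM among the siEgr2 libraries and from 1292 to 1418 CPM in siNC. None of the 10 OL markers fell or rose in edgeR's test. At an adjusted p under 0.05 alone 2 of them were lower and 3 higher, beside 11.3% and 8.57% of all tested genes. At an unadjusted p under 0.05, 5 were lower and 3 higher, beside 16.9% and 15.1% of all tested genes. Endothelial markers summed to 28.7 to 36.6 CPM in siNC and 28.1 to 39.1 CPM in siEgr2, with the defining gene Cldn5 at 0 in every library and 1 of 4 tested fallen. Microglial markers summed to 25.1 to 30.8 CPM and 21.4 to 32.1 CPM, with Aif1 at 0 in every library and none of 4 tested fallen or risen in edgeR's test, also at an unadjusted p under 0.05. Neuronal markers summed to 140 to 159 CPM and 122 to 133 CPM, and 1 of 7 tested fell. The part of these cells in the collagen results was not tested.

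**Figure D5:**
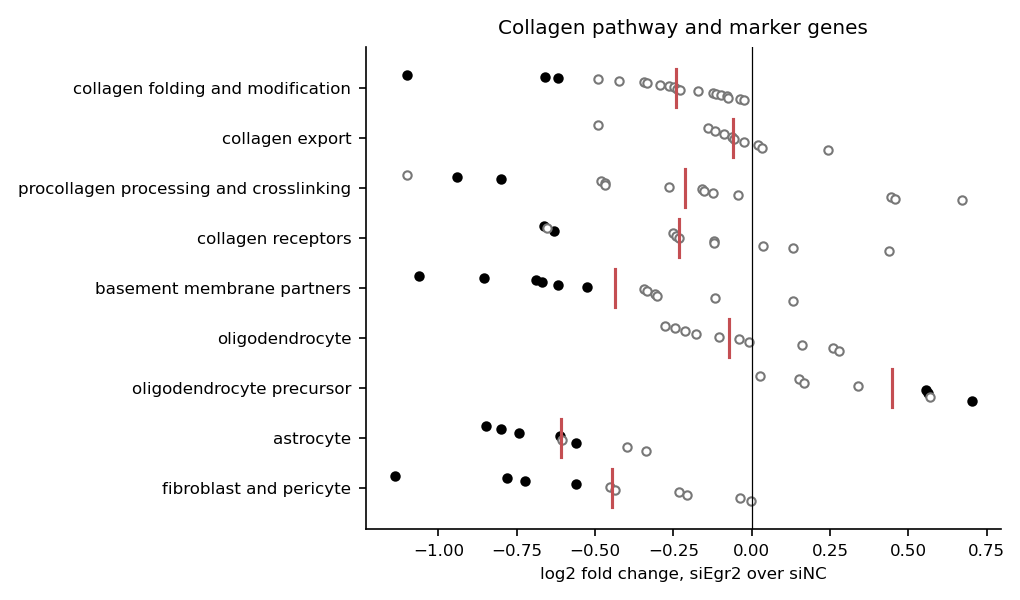
Log2 fold change of siEgr2 over siNC for the tested genes of 5 collagen pathway lists and 4 cell marker lists, filled where the gene passed both thresholds, with a red bar at the median of each list. The basement membrane partners (median -0.43), astrocyte markers (-0.61) and fibroblast and pericyte markers (-0.45) lie farthest to the left, and the OL precursor markers (0.45) lie to the right.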

How the data were processed

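Total RNA of 12 libraries was sequenced by the authors, and the deposited values are whole-number counts for each gene symbol that were not normalized. The labels name the mm10 build, and the aligner and counter are not given in the sources used here. The 1 entry without a gene name held no counts and was left out. Groups and replicate numbers were taken from the sample titles.

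All 56860 named entries were read and filtered with filterByExpr, which left 16600 genes. Library sizes were scaled by TMM and siEgr2 was compared with siNC by glmQLFit and glmQLFTest in edgeR 4.0.16 (R 4.3.3), with Benjamini-Hochberg adjustment. The thresholds, an adjusted p of 0.05 and an absolute log2 fold change of 0.5, follow the study's methods. The scripts were tested on simulated data. Levels per kb used the union of annotated exons (GENCODE M21, GRCm38). Within a group, no pair of libraries agreed within sampling noise.

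Named with values were all collagen genes that passed, all tested fibrillar and type 4 genes, the 5 other types with the highest level per kb, partner chains, and up to 4 genes per pathway list. Col7a1, Col10a1, Col23a1, Col28a1, Pcolce2 and Adamts3 were named after their values were seen. The collagen genes and the lists were chosen with earlier results of these data known. Alternatives were RLE, upper-quartile and library-size scaling, DESeq2 1.42.0, limma-voom 3.58.1, other count filters, thinning, a length and GC correction (mgcv), a replicate block, no fold threshold, removal of structural RNA genes and leaving out each library.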

Additional observations from a re-analysis of the deposited data

Results flagged for a closer look

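In 94 groups of 6 library values for the collagen genes and chain ratios (5 for Col4a3 over Col4a4 in siEgr2), 6 had 1 library apart from the other 5 by Dixon's test. Chance would set apart about 4.7. Of these, 2 were in siNC replicate 4, where Col6a1 stood at 29.4 CPM (39.8 to 45.1 CPM in the rest of the group) and Col8a1 at 14 CPM against 22.8 to 27.8 CPM. Without that library 14 collagen genes fell in place of 11, Col6a1 among them. Col8a2 stood at 11.2 CPM in siNC replicate 2 against 8.05 to 9.21 CPM in the others. In siEgr2 replicate 5 Col8a2 stood at 11.4 CPM against 6.79 to 8.48 CPM, and Col9a1 over Col9a2 stood at 21.4 against 7.37 to 11.1. Col23a1, a membrane-spanning chain, stood at 9.55 CPM in siEgr2 replicate 6 against 5.51 to 6.43 CPM. The cause was not tested.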

How the results depend on the processing

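Across 25 alternatives, 8 of the 11 collagen genes that fell passed both thresholds in each alternative that tested them: Col5a3, Col4a5, Col4a6, Col6a6, Col8a1, Col12a1, Col22a1 and Col26a1. Scaling by library size alone, which left all genes at a median of -0.18 and put 88.0% of all calls on the lower side against 65.9%, gave 20 collagen genes and 25 pathway genes that fell, class medians of -0.40 (fibrillar), -0.69 (type 4) and -0.62 (other types), and Egr2 at -0.70 with an edgeR adjusted p of 0.0144, where the 25 alternatives ranged from 0.0144 to 0.214. Under it Col9a1 turned to -0.059 and Col16a1 to -0.057. With no fold threshold 17 collagen genes fell, 1 rose (Col11a1) and 32 pathway genes fell, beside 11.3% of all genes lower and 8.57% higher, and with any count as the filter 1 collagen gene rose (Col10a1, by counts in few libraries). Col11a2 turned to 0.0047 with the length and GC trend removed and to 0.0024 with that correction and the replicate block together, and ranged from -0.084 to 8.0e-05 when each library was left out in turn.

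The replicate numbers did not pair the libraries: correlations of same-numbered deviations ran from -0.039 to 0.042, and 2 of 6 pairs matched best. With the replicate block 9 collagen genes fell, Col2a1 and Col13a1 being lost. Leaving out 1 library gave 9 to 15 collagen genes that fell, 9 without siNC replicate 6 and 15 without siEgr2 replicate 6 (10 of them of the other types), and 11 to 17 pathway genes. With at least 30 counts in 6 libraries asked for, Col6a6 and Col13a1 were not tested and 9 of 33 collagen genes fell. Without siNC replicate 1, 2, 3, 5 or 6 Col13a1 was not tested. Depth limits Col2a1, Col6a6, Col13a1 and Col22a1, with at most 20 counts in any siEgr2 library. DESeq2 called 12 collagen genes lower.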

Other observations

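Counts from 6 to 20 were even numbers in 63.0% to 67.1% of cases in siNC and 64.2% to 65.9% in siEgr2. The siEgr2 counts of Col2a1, Col6a6, Col13a1 and Col22a1 were at or under 20 in every library, and the part of this excess of even counts in their results was not tested. Col3a1 and Col5a2 lie tail to tail on chromosome 1, 24614 bp apart, and their log2 fold changes were -0.11 and -0.55.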
